A study of Mus musculus with 6 samples.

Results

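Integrins and laminins were followed in primary mouse heart cells with and without a Cre-recombined Rit1 allele. The genes were taken by name from the deposited expression table: every integrin alpha or beta chain and every laminin alpha, beta or gamma chain, 37 genes of the 54532 listed, of which 26 encode integrins and 11 encode laminins. Of these, 31 reached a mean of 0.5 FPKM over the samples and were tested, 22 integrins and 9 laminins. FPKM counts the fragments of a transcript per kilobase of exon, scaled to the depth of the library, so levels can be compared between genes. The 6 genes below that level were Itgad, Itgae, Itgal, Itgb7, Lama1 and Lamc3, which ranged from 0 to 0.643 FPKM.

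Integrins are cell surface receptors made of 1 alpha and 1 beta chain. They hold cells to the extracellular matrix outside and to the actin cytoskeleton inside. Laminins are cross-shaped assemblies of 1 alpha, 1 beta and 1 gamma chain that build the basement membrane, the sheet that wraps every cardiomyocyte and underlies endothelium and epithelium. The alpha chain largely decides which receptors a laminin engages: the integrins with alpha3, alpha6 or alpha7, or dystroglycan with its dystrophin complex. In striated muscle, alpha7beta1 is the main laminin-binding integrin of the mature cell, and laminin with an alpha2 chain is its chief ligand.

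The cells came from hearts of neonates aged 1 to 3 days that carry a conditional Rit1 locus, RIT1 being a RAS-related GTPase. Both groups were infected with adenovirus on day 3 after isolation, and the study places the RNA sequencing at day 6 after infection. The 3 AdGFP samples received virus for GFP and are labelled Rit1 +/+. The 3 AdCre samples received virus for GFP-Cre and are labelled Rit1 M90I/+, the M90I allele being one associated with Noonan syndrome. The conditional locus is thus shared by both groups, but no wild-type culture with Cre is among the samples, so effects of Cre and of the variant cannot be told apart. Per the study's methods, the cells were depleted of quickly adhering cells on plastic and seeded on wells coated with laminin. That coating is protein and adds no transcript to the values.

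Depth and cell content bear on every value below. The recovered reads per library ranged from 25.3 to 32.4 M (M, megareads). Cardiomyocyte markers were abundant in all samples (Tnnt2, cardiac troponin T, 210 to 537 FPKM), but so were fibroblast collagens (Col1a1, 1389 to 2450 FPKM), so these were mixed cultures. All 9 cardiomyocyte markers of a list were lower on average in AdCre, with a median log2 difference of -0.71, and all 9 endothelial markers were higher, with a median of 0.41. Fibroblast markers were lower in 7 of 8 (median -0.40). With 1 sample left out, the medians ranged from -0.93 to -0.53 for cardiomyocyte, from 0.17 (without AdCre 3) to 0.61 for endothelial and from -0.63 to -0.13 (without AdGFP 3 or AdCre 1) for fibroblast markers. In bulk RNA, fewer cells of a type and less RNA per cell cannot be told apart. The first replicate of both groups stood apart in epithelial and leukocyte markers: the 4 epithelial markers summed to 0.777 FPKM in AdGFP 1 and 3.44 in AdCre 1, against 22.7 to 41.7 in the other samples.

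Without regard to replicate number, no integrin or laminin passed limma's moderated test with Benjamini-Hochberg adjustment over all 13794 genes at 0.05 (0 of 31), where 0.00725% of all genes did. That share is 1 gene, Ly6c1, named after its values were seen. At an unadjusted p under 0.05, 4 of the 31 passed (Itga3, Itgb3, Lama2 and Lamb2), against 10.2% of all genes. limma on voom-weighted recovered reads also called 0, with 5 at an unadjusted p under 0.05. Same-numbered samples of the groups deviated together from their group means, and a second fit therefore took the replicate number as a block. It called 6 of the 31 members, against 6.15% of all genes, and 14 at an unadjusted p under 0.05, against 24.7%. Itga3, Itga6 and Itgb3 rose (3 members, against 2.64% of all genes) and Itga7, Lamb2 and Lama2 fell (3 members, against 3.51%). None of the 6 calls was retained with the block when replicate pair 2 or replicate pair 3 was left out, without limma's trend of the variance with level, or with no filter on low values. The calls, not the differences, were lost there: over the blocked fits the log2 difference was 0.80 to 1.16 for Itga3, 0.51 to 0.83 for Itga6, 0.47 to 0.69 for Itgb3, -0.70 to -0.50 for Itga7, -0.75 to -0.57 for Lamb2 and -0.73 to -0.47 for Lama2, and each went one way in 3 of 3 pairs. Itga6, Itgb3 and Lama2 also failed to pass with the block when pair 1 was left out. Over the 12 fits with the block, adjusted p ranged from 0.00293 to 0.0928 for Itga3, 0.0109 to 0.164 for Itga6, 0.0136 to 0.18 for Itgb3, 0.00585 to 0.139 for Itga7, 0.00332 to 0.119 for Lamb2 and 0.01 to 0.161 for Lama2 (limma). Among the gene lists around the members, 12 of the 65 tested passed with the block, against 6.15% of all genes, 2 without pair 2, 1 with no filter on low values, and 0 without pair 3 or without that trend.

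Over the 31 tested members the median log2 difference was 0.09, with 17 higher and 14 lower on average, beside -0.00 over all genes. The members' median was 0.01 without AdGFP 1 and -0.08 without AdCre 2. The groups did not overlap for 5 members, where 15.4% of all genes did not. These were 3 higher in AdCre, against 7.36%, and 2 lower, against 8.02%. All 3 pairs differed in the same direction for 20 members, against 48.4% of all genes. These were 12 higher, against 23.9%, and 8 lower, against 24.5%.

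**Figure D1:**
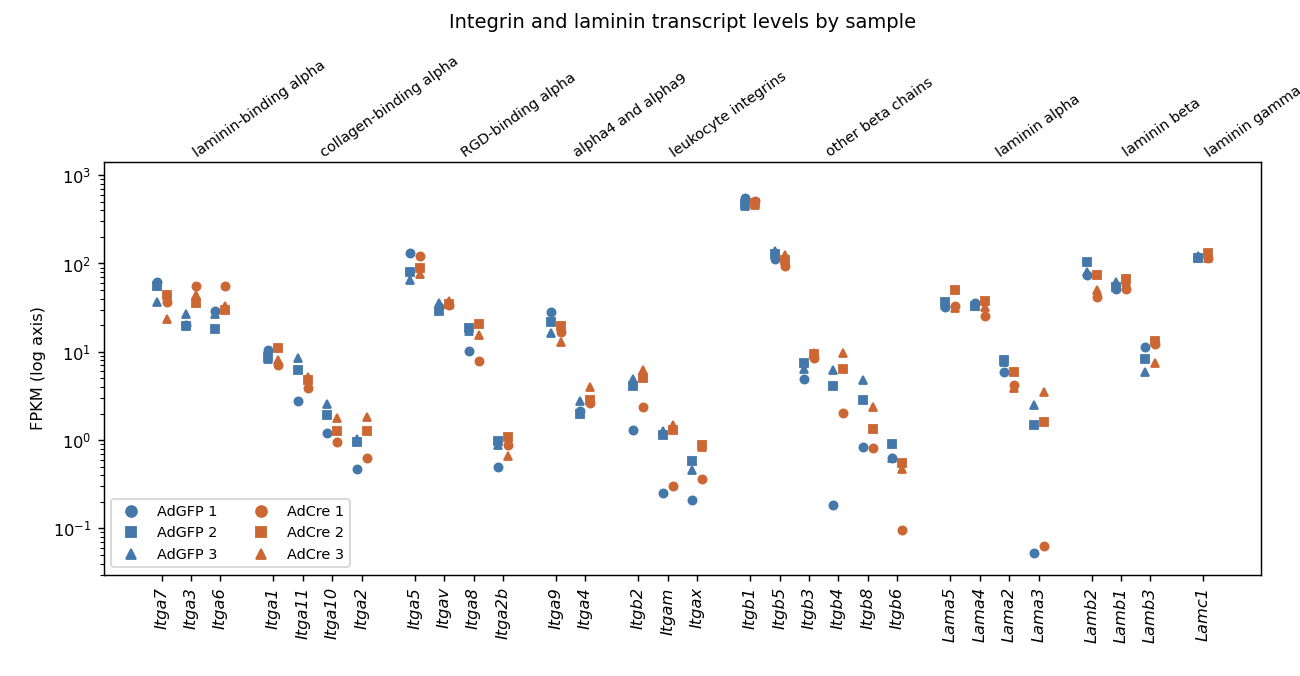
FPKM on a log axis of tested integrin and laminin genes in each of the 6 samples, ordered by role and, within a role, by mean level. Blue symbols are AdGFP and orange symbols AdCre, with the symbol's shape giving the replicate number; Itgb1 lies highest, at 445 to 557 FPKM, and replicate 1 of both groups lies lowest in Itgb4 and Lama3.

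The 3 alpha chains that bind laminin moved in opposite directions. Itga3 encodes the alpha3 chain, which pairs with beta1 and binds laminins with an alpha5 or alpha3 chain in many epithelia and other cells. Its gene lies at chr11:95044474-95076801 on the minus strand (GRCm38). Itga3 was at 19.98, 19.4 and 26.6 FPKM in AdGFP 1 to 3 and at 55.1, 35.3 and 44.5 FPKM in AdCre 1 to 3. The AdCre values all exceeded the AdGFP values, and the gap was widest in pair 1. The log2 difference was 1.02 ± 0.20 (SE), the largest among members that passed with the block (limma, adjusted p = 0.215, and 0.0269 with the block).

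Because Itga3 and 2 laminins described below are members that moved and have a RefSeq promoter entry, the stretch before their start site that lies outside annotated exons is shown for each. Of 37 members 23 had an entry, and Itga6, Itga7 and Itgb3 had none. The stretch of Itga3 is chr11:95076802-95076951, minus strand, ending 87 bases before the start site. Capitals mark GGGCGG, the core letters of an SP1 site, read on both strands.
Itga3: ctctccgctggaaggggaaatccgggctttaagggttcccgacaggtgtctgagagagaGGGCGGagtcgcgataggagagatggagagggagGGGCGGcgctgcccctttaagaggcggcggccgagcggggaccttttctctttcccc
These letters stood in the promoter windows of 11 of the 23 members and of 35.7% of all 32851 windows.

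Itga6 encodes the alpha6 chain, the partner of beta1 in endothelium and of beta4 in the hemidesmosomes of epithelium (chr2:71745616-71858416, plus strand). It stood at 29.0, 17.9 and 26.8 FPKM in AdGFP and at 55.7, 29.7 and 33.0 FPKM in AdCre. The lowest AdCre value exceeded the highest AdGFP value only narrowly, and AdCre 1 was far above its group. The log2 difference was 0.65 ± 0.28 (limma, adjusted p = 0.505, and 0.0476 with the block), and 0.38 without AdCre 1. About 5.31% of the 50-base words of Itga6 transcripts also occur in other genes.

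Itga7 encodes the alpha7 chain of muscle (chr10:128933818-128958282, plus strand). In AdGFP it was at 62.0, 56.1 and 36.9 FPKM, and in AdCre at 37.0, 43.4 and 23.2 FPKM. The groups overlapped, AdGFP 3 being as low as AdCre 1, but AdCre was lower within each of the 3 pairs, where it fell by 0.74, 0.37 and 0.67 on the log2 scale. The mean log2 difference was -0.59 ± 0.28 (limma, adjusted p = 0.549, and 0.0306 with the block), and -0.33 without AdCre 3.

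The fall of Itga7 lay within the range of those of the 9 cardiomyocyte markers, whose log2 differences ran from -1.12 for Myl2, a ventricular myosin light chain, to -0.24 for Myh7, a myosin heavy chain. Divided by Tnnt2 in the same library, Itga7 was 0.115, 0.113 and 0.112 in AdGFP and 0.121, 0.138 and 0.111 in AdCre, which overlap. Tnnt2 itself was at 537, 498 and 331 FPKM in AdGFP and at 305, 314 and 210 FPKM in AdCre. These ratios, and the others to a marker given below, were chosen after the values were seen. Itga3 divided by Cdh5, the endothelial cadherin, was 1.46, 1.09 and 1.07 in AdGFP and 3.14, 1.47 and 1.273 in AdCre, higher within each pair but overlapping between groups. Itga6 divided by Cdh5 was 2.12, 1.00 and 1.08 in AdGFP and 3.17, 1.24 and 0.945 in AdCre, with no single direction. Cdh5 is one of 9 endothelial markers, whose log2 differences ran from 0.12 for Kdr to 0.60 for Flt1, both receptors for vascular growth factor. Krt8, a keratin of simple epithelia and mesothelium, had a larger log2 difference than either chain. It went from 22.4, 47.5 and 75.1 FPKM to 101, 109 and 158 FPKM, a difference of 1.48 (limma, adjusted p = 0.0269 with the block). Divided by Krt8, Itga3 had log2 differences of -0.71, -0.34 and -0.33 in pairs 1 to 3. Itga6 divided by Krt8 had -1.23, -0.47 and -0.77, and both ratios overlapped between groups. Over the whole list of 8 epicardial and mesothelial markers, 5 were lower and 3 higher on average, with a median of -0.26, but the median changed sign with the samples included. It came to 0.13 without AdGFP 3, 0.10 without AdCre 2 and -0.83 without AdGFP 1. The part of each cell type in the changes of Itga3, Itga6 and Itga7 was not tested.

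**Figure D2:**
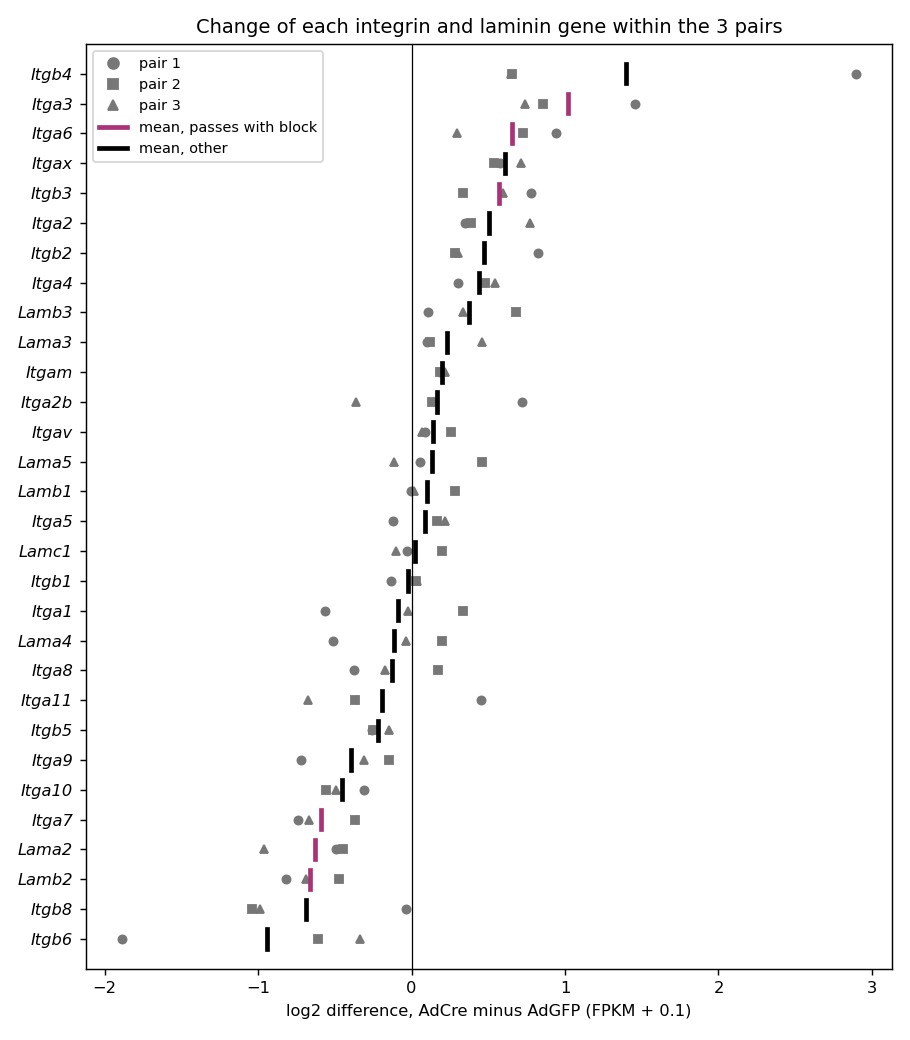
Log2 difference, AdCre minus AdGFP, of tested integrin and laminin genes, with grey symbols for the 3 same-numbered pairs and a bar for the mean, on log2(FPKM + 0.1). Purple bars mark the 6 genes that passed limma with the replicate block: Itga3, Itga6 and Itgb3 lie to the right of 0, Itga7, Lama2 and Lamb2 to the left, and Itgb4 has the widest spread between pairs.

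Expressed as shares of the summed FPKM of Itga3, Itga6 and Itga7, the order of the chains changed. Itga7 made up 55.9, 60.1 and 40.9% in AdGFP and 25.04, 40.1 and 23.1% in AdCre, a mean of 52.3% ± 10.1 (SD, n = 3) against 29.4% ± 9.30. Itga3 made up 18.02, 20.8 and 29.4% in AdGFP and 37.3, 32.6 and 44.2% in AdCre, a mean of 22.7% ± 5.95 against 38.0% ± 5.83. For both chains the groups did not overlap. Itga6 averaged 24.995% ± 5.35 in AdGFP and 32.6% ± 5.16 in AdCre, and its groups overlapped. The ratio of Itga3 to Itga7 came to 0.322, 0.345 and 0.719 in AdGFP, and to 1.49, 0.813 and 1.91 in AdCre. Itga7 exceeded Itga3 in each AdGFP sample, and Itga3 exceeded Itga7 in AdCre 1 and 3. The 3 chains together summed to 90.3 to 111 FPKM in AdGFP and to 101 to 148 FPKM in AdCre. Shares are a description and carry no test.

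**Figure D3:**
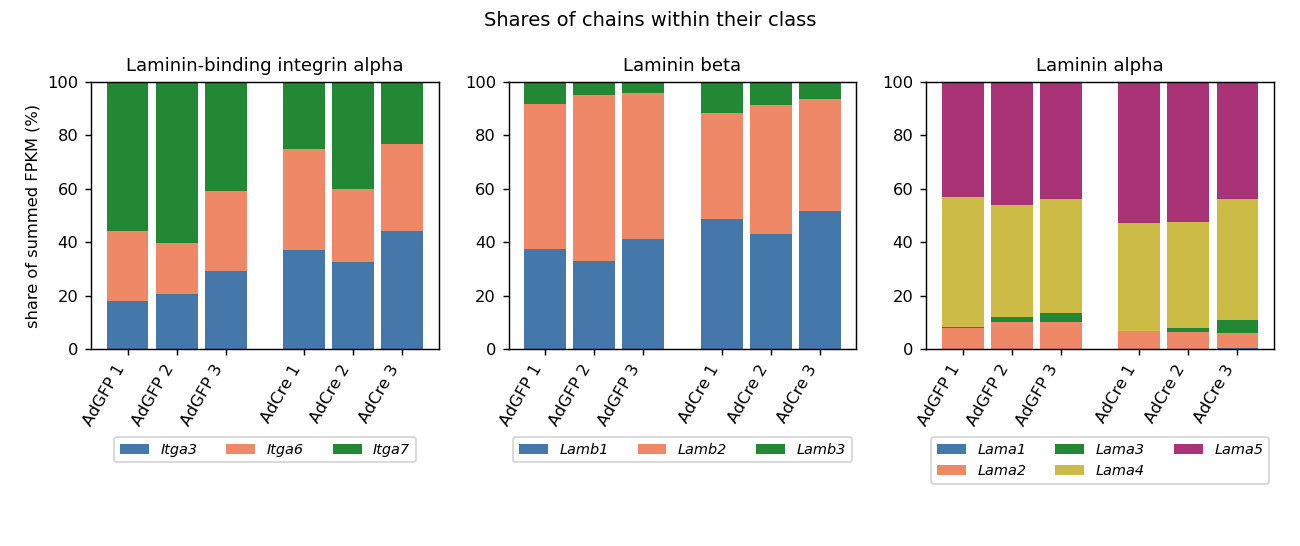
Stacked bars of the share (%) of each chain in the summed FPKM of its class, per sample, for the laminin-binding integrin alpha chains, the laminin beta chains and the laminin alpha chains. The Itga7 share averages 52.3% in AdGFP and 29.4% in AdCre, the Lamb2 share 57.0% and 43.3%, and the Lama2 share 9.42% and 6.13%.

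None of the remaining integrin alpha chains passed either fit. Among the collagen receptors Itga1 was highest, at 10.4, 8.80 and 8.18 FPKM in AdGFP and 7.01, 11.1 and 8.04 FPKM in AdCre. Its groups overlapped widely. The log2 differences of the other collagen-binding chains were -0.20 for Itga11, -0.45 for Itga10 and 0.50 for Itga2. With 1 sample left out they ran from -0.73 (without AdGFP 1) to -0.21 (without AdGFP 3) for Itga10 and from 0.19 (without AdCre 3) to 0.89 (without AdCre 1) for Itga2. For Itga10, 33.5% of the exon length is shared with a second gene model on the same strand, which makes its level uncertain.

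The alpha5 chain, the fibronectin receptor's, was the most abundant alpha chain of all. Itga5 was at 133, 80.1 and 64.9 FPKM in AdGFP and 123, 89.9 and 75.7 FPKM in AdCre. In both groups the sample numbered 1 was highest and the sample numbered 3 lowest, and the mean log2 difference was 0.09 ± 0.30. Its level exceeded that of Itga7, the next in order, in all 6 samples, whereas Itga7, Itgav, Itga3, Itga6 and the chains after them had ranges that overlapped their neighbours'. Itgav, whose chain serves the vitronectin receptors, held to 29.2 to 37.7 FPKM over all samples. Itga8 and Itga2b, the platelet chain, had log2 differences of -0.12 and 0.16.

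Itga9, which pairs with beta1 and binds tenascin-C, was at 28.1, 21.7 and 16.2 FPKM in AdGFP and at 17.0, 19.6 and 13.1 FPKM in AdCre. AdCre was lower within each pair, while the groups overlapped (log2 difference -0.39 ± 0.24, limma, adjusted p = 0.653, and 0.125 with the block). Without AdGFP 1 the difference was -0.20, without AdCre 3 -0.23 and without AdGFP 3 -0.59. Itga4, the other chain of that branch, had a log2 difference of 0.44, 0.26 without AdCre 3, and was higher within each pair (adjusted p = 0.0892 with the block, limma). It passed in 1 of the 12 blocked fits, voom on the recovered reads (adjusted p = 0.0204).

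Itgb1, the beta partner of most alpha chains, was at 557, 468 and 445 FPKM in AdGFP and 507, 478 and 457 FPKM in AdCre, and made up 77.2% ± 4.56 and 78.6% ± 3.79 of all beta chain FPKM. The groups overlapped, and the log2 difference was -0.02 ± 0.16, with a positive sign when rescaled to TPM. Itgb5 came next, at 93.6 to 138 FPKM over all samples, with a log2 difference of -0.22 ± 0.16, -0.12 without AdCre 1, and lower values in AdCre within each pair. Both exceeded every beta chain below them in all 6 samples.

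Itgb3 encodes the beta3 chain of the vitronectin and fibrinogen receptors, expressed in platelets, activated endothelium and other cells (chr11:104608000-104670476, plus strand). It was at 4.87, 7.38 and 6.38 FPKM in AdGFP and at 8.42, 9.32 and 9.71 FPKM in AdCre. All AdCre values lay above all AdGFP values. The log2 difference was 0.57 ± 0.17 (limma, adjusted p = 0.341, and 0.0459 with the block). Itgb3 rested on 710 to 1591 reads per library. Divided by Cdh5 it was 0.356, 0.414 and 0.256 in AdGFP and 0.480, 0.388 and 0.278 in AdCre, which overlap. Its alpha partner in platelets, Itga2b, stayed between 0.497 and 1.09 FPKM in all samples. Of 6 platelet markers 3 were tested, and all 3 were higher on average in AdCre, with a median log2 difference of 0.42, which ran from -0.03 without AdGFP 1 to 1.15 without AdCre 1. Pf4, platelet factor 4, was at 3.31, 11.0 and 12.2 FPKM in AdGFP and 3.72, 18.05 and 16.2 FPKM in AdCre. Of the glycoprotein genes Gp1ba was at 0.328 to 0.965 FPKM, Gp9 at 0 to 0.246 FPKM, and Gp1bb and Gp6 were at 0 in all 6. The part of platelets in the Itgb3 values was not tested.

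Itgb6, an epithelial beta chain, did not overlap between groups but was scarce. It was at 0.626, 0.898 and 0.622 FPKM in AdGFP and 0.0966, 0.555 and 0.472 FPKM in AdCre, from 22 to 162 reads. AdCre 1 alone set much of the log2 difference of -0.94 ± 0.53 (limma, adjusted p = 0.627, and 0.233 with the block), which was -0.40 without it.

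Itgb4, the beta chain of hemidesmosomes, had a mean difference of 1.40 ± 1.18 on the log2 scale. Its values were 0.185, 4.06 and 6.18 FPKM in AdGFP and 2.02, 6.45 and 9.72 FPKM in AdCre. AdCre was higher within each pair, but the 2 samples numbered 1 were the lowest of all, and AdGFP 1 held 32 reads. Divided by Epcam, an epithelial marker that shared this pattern, Itgb4 was 2.33, 1.02 and 0.838 in AdGFP and 1.33, 1.07 and 0.817 in AdCre. With 1 sample left out, the log2 difference ranged from 0.0083 without AdGFP 1 to 2.24 without AdGFP 3. It did not pass with all samples (adjusted p = 0.133 with the block, limma) and passed with the block only when pair 1 was left out. Itgb8, with a log2 difference of -0.69, passed in that fit and in the blocked voom fit, but not with the block on all samples (adjusted p = 0.147, limma). Leaving out 1 sample moved it between -1.36 (without AdGFP 1) and -0.17 (without AdGFP 3). The 4 epithelial markers had log2 differences from 0.17 for Krt14 to 1.48 for Epcam. The part of epithelial cells in the Itgb4 values was not tested.

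The leukocyte integrins were low. Itgb2, the common beta chain of that family and its highest member, was at 1.29, 4.15 and 4.97 FPKM in AdGFP and at 2.35, 5.06 and 6.16 FPKM in AdCre. The samples numbered 1 were lowest in both groups, and AdCre was higher within each pair (log2 difference 0.47 ± 0.55, limma, adjusted p = 0.118 with the block). The macrophage lysozyme gene Lyz2 had the same order, and Itgb2 divided by Lyz2 was 0.0408, 0.0277 and 0.0260 in AdGFP and 0.0437, 0.0250 and 0.0257 in AdCre. The tested markers of macrophages and leukocytes had log2 differences from 0.04 for Cd14 to 0.72 for Cd68, with 0.51 for Lyz2. Itgax and Itgam were at most 1.48 FPKM, and 68.7% of the exon length of Itgam lies in a second gene model, so its level is uncertain.

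Among the laminins, 2 chains typical of muscle basement membrane were lower in AdCre. Lama2 encodes the alpha2 chain (chr10:26980036-27619758, minus strand), whose loss causes a congenital muscular dystrophy. It was at 5.97, 8.00 and 7.73 FPKM in AdGFP and at 4.22, 5.86 and 3.92 FPKM in AdCre. The highest AdCre sample fell just below the lowest AdGFP sample. The log2 difference was -0.63 ± 0.20 (limma, adjusted p = 0.352, and 0.0499 with the block), and this call stood in only 2 of the 12 fits with the block.

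The promoter entry of Lama2 is not at the outermost annotated start but 2816 bases downstream of it. The bases just before that start site, chr10:27616943-27617092 on the minus strand, hold a CArG box, the site of serum response factor, shown in capitals.
Lama2: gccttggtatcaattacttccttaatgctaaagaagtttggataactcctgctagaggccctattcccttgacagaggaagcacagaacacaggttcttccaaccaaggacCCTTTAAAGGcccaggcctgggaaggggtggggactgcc
A CArG box stood in the window of 1 of the 23 members and in 1.63% of all windows. A match of letters does not show that a factor binds.

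Lama5 and Lama4, the alpha chains of vascular and other basement membranes, were several-fold more abundant than Lama2. Lama5, the highest, was at 31.8, 36.3 and 33.6 FPKM in AdGFP and 33.1, 49.98 and 31.0 FPKM in AdCre, with AdCre 2 alone above the rest. Lama4 ranged from 25.3 to 38.0 FPKM, overlapping Lama5. Both stood above Lama2 in all 6 samples, and their log2 differences were 0.13 ± 0.19 and -0.12 ± 0.16. The ratio of Lama5 to Lama2 was 5.33, 4.53 and 4.34 in AdGFP and 7.83, 8.53 and 7.90 in AdCre, without overlap. Lama3, an epithelial alpha chain, was at 0.0527 and 0.0639 FPKM in the samples numbered 1 and at 1.48 to 3.51 FPKM in the others.

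Lamb2 encodes the beta2 chain of muscle, synaptic and glomerular basement membranes (chr9:108479736-108490530, plus strand). It was at 74.3, 103 and 81.0 FPKM in AdGFP and at 42.0, 74.3 and 50.2 FPKM in AdCre. The groups overlapped, AdCre 2 and AdGFP 1 being equal at the digits given, but AdCre was lower within each pair. The log2 difference was -0.66 ± 0.24 (limma, adjusted p = 0.417, and 0.0241 with the block), the smallest blocked p of any member. The stretch of its promoter entry outside exons is chr9:108479612-108479735, plus strand, 126 bases from the start site. It carries no capitals because it holds none of the 6 motifs searched.
Lamb2: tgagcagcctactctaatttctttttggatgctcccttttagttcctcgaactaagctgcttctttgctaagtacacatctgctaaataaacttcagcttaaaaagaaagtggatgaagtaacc
Besides the SP1 letters and the CArG box, the motifs were TGANTCA for AP-1, GGAATG for TEAD, CCGGAAG for ETS and CACGTG for the E-box.

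Lamb1, the beta1 chain of most other laminins, did not move with Lamb2. It ranged from 51.3 to 66.7 FPKM over all samples, with a log2 difference of 0.10 ± 0.14. Lamb2 therefore made up 54.2, 62.1 and 54.8% of beta chain FPKM in AdGFP and 39.8, 48.1 and 42.0% in AdCre. The means were 57.0% ± 4.38 and 43.3% ± 4.29, and the groups did not overlap. Lamb1 averaged 37.2% ± 4.14 in AdGFP and 47.8% ± 4.29 in AdCre, also without overlap. Lamb3, the third beta chain and part of epithelial laminin, had a log2 difference of 0.37, between 0.14 (without AdGFP 3) and 0.63 (without AdCre 3) with 1 sample left out, and was higher within each pair.

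The falls of both laminins were near that of Tnnt2 in size, and within the range of the 9 cardiomyocyte markers. Lamb2 divided by Tnnt2 was 0.138, 0.207 and 0.245 in AdGFP and 0.138, 0.237 and 0.239 in AdCre. Lama2 divided by Tnnt2 was 0.0111, 0.0161 and 0.0234 in AdGFP and 0.0138, 0.0186 and 0.0187 in AdCre. The log2 differences of the 8 fibroblast markers ran from -0.79 for Dcn, decorin, to 0.10 for Postn, periostin. Those of the cardiomyocyte markers ran from -1.12 to -0.24, so a ratio to either type depends on the marker. Divided by Pdgfra, a fibroblast marker with a log2 difference of -0.20, Lama2 was 0.572, 0.493 and 0.262 in AdGFP and 0.427, 0.391 and 0.178 in AdCre. Lamb2 divided by Pdgfra was 7.12, 6.36 and 2.75 in AdGFP and 4.25, 4.96 and 2.28 in AdCre. Both ratios to Pdgfra were lower in AdCre within each pair, with overlap between groups. Fibroblasts also make both chains, and which cells carried the falls was not tested.

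Lamc1, the gamma chain of most laminins and the highest of its class, was at 118, 115 and 123 FPKM in AdGFP and at 116, 131 and 115 FPKM in AdCre. The groups overlapped, with a log2 difference of 0.02 ± 0.12 whose sign flipped in some fits with 1 sample left out.

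Around the laminins, the list of 15 basement membrane partners had a median log2 difference of 0.00. With the block 3 of its members rose, against 2.64% of all genes, and 2 fell, against 3.51%. None passed without the block. Col4a6 and Col4a5, 2 type IV collagen chains that assemble together, fell. Col4a6 was at 10.8, 12.5 and 13.3 FPKM in AdGFP and 5.31, 6.95 and 6.84 FPKM in AdCre, and Col4a5 at 80.8, 92.0 and 88.2 FPKM and 40.7, 57.3 and 52.2 FPKM. Their log2 differences were -0.93 ± 0.15 and -0.81 ± 0.16 (limma, adjusted p = 0.0119 and 0.0149 with the block, 0.144 and 0.206 without). Col4a1 and Col4a2, the chains of the common type IV collagen, had log2 differences of 0.01 and -0.09.

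The 3 that rose link or line basement membranes. Nid1, which bridges laminin and type IV collagen, was at 86.5, 81.5 and 95.6 FPKM in AdGFP and 123, 118 and 120 FPKM in AdCre, without overlap. Its log2 difference was 0.46 ± 0.12 (limma, adjusted p = 0.0351 with the block). Col15a1 and Col18a1, collagens of vessel and muscle basement membrane zones, had log2 differences of 0.58 ± 0.18 and 0.50 ± 0.25 (limma, adjusted p = 0.0354 and 0.0271 with the block).

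Of the 12 other laminin receptors, 8 were lower on average, with a median of -0.22, which came to -0.35 without AdGFP 3 or without AdCre 2. With the block 2 fell, against 3.51% of all genes, and 1 rose, against 2.64%. Among the falls was Dmd, dystrophin itself, which went from 4.35, 4.19 and 3.96 FPKM to 1.62, 2.52 and 1.75 FPKM. Every AdCre value was below every AdGFP value, with a log2 difference of -1.07 ± 0.19 (limma, adjusted p = 0.175, and 0.0269 with the block). That difference lay within the range of the cardiomyocyte markers (median -0.71) but near its lower end. There Actn2, alpha-actinin of the Z disc, had -1.05 and Myl2 -1.12. Divided by Tnnt2, Dmd was 0.0081, 0.00841 and 0.012 in AdGFP and 0.00532, 0.00803 and 0.00833 in AdCre. That ratio was lower within each pair, with overlap between groups. Sdc1, a heparan sulfate proteoglycan, rose, with a log2 difference of 0.45 ± 0.15 (limma, adjusted p = 0.0443 with the block), and Dag1, dystroglycan, had -0.31 and did not pass.

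**Figure D4:**
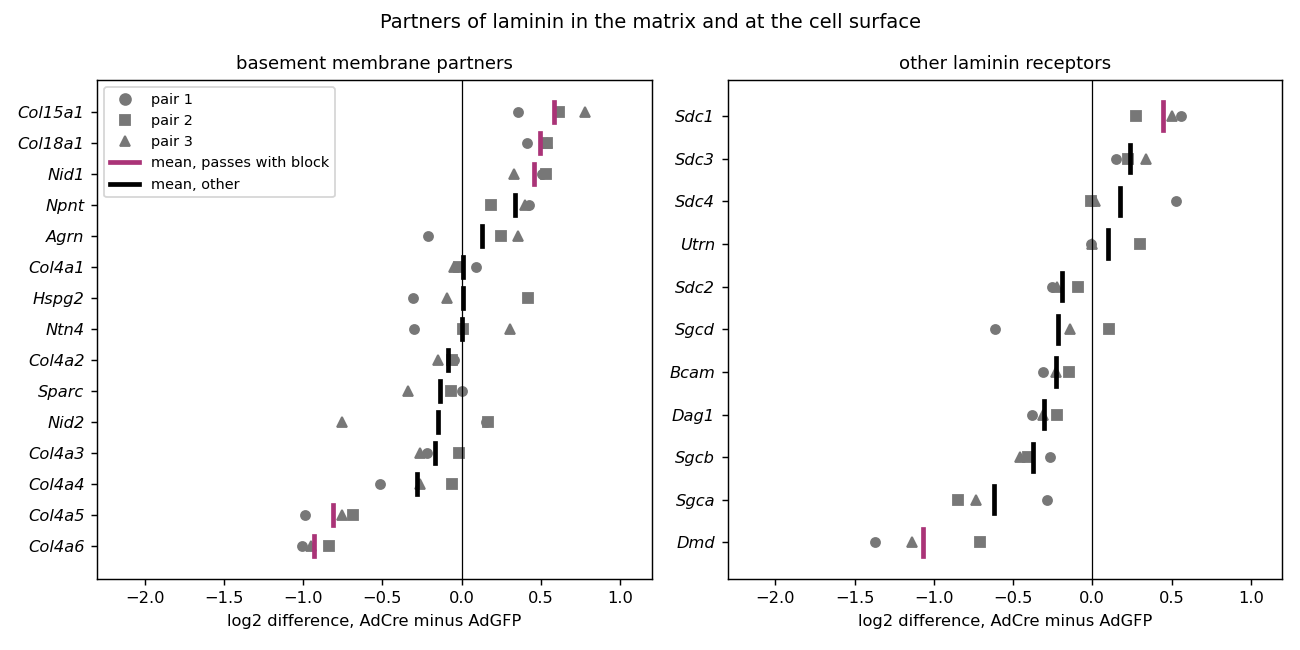
Log2 difference, AdCre minus AdGFP, of the basement membrane partners (left) and other laminin receptors (right), with grey symbols for the 3 pairs and bars for the mean. Purple bars passed limma with the replicate block; Col4a5 and Col4a6 have the lowest means among the genes on the left and Dmd among those on the right, and all lie below 0 in the 3 pairs.

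Inside the cell, the 28 tested genes of the adhesion complex hardly shifted, with a median log2 difference of 0.04 and 18 higher, 10 lower. Talin (Tln1), vinculin (Vcl) and focal adhesion kinase (Ptk2) had log2 differences of 0.11, -0.10 and 0.22, and none passed. With the block 2 of the 28 fell, against 3.51% of all genes. Itgb1bp2, melusin, a muscle protein that binds the beta1 tail, was at 10.2, 8.39 and 4.89 FPKM in AdGFP and at 1.06, 2.13 and 1.56 FPKM in AdCre. The groups were far apart, and the log2 difference of -2.22 ± 0.34 exceeded that of any integrin or laminin (limma, adjusted p = 0.117, and 0.0232 with the block). Divided by Tnnt2, Itgb1bp2 was 0.0190, 0.0169 and 0.0148 in AdGFP and 0.00347, 0.00678 and 0.00746 in AdCre. It was thus lower relative to troponin as well. Zyx, zyxin of focal adhesions and stress fibres, had a log2 difference of -0.39 ± 0.13 (limma, adjusted p = 0.0427 with the block).

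Of the 13 other integrin ligands, 10 were tested, and all 10 were higher on average, with a median of 0.30, which came to 0.08 without AdGFP 1, 0.19 without AdGFP 2 and 0.14 without AdCre 3. Tnc, tenascin-C, rose from 97.6, 70.7 and 76.7 FPKM to 156, 119 and 105 FPKM, without overlap (log2 difference 0.63 ± 0.20, limma, adjusted p = 0.0239 with the block). Icam1, the ligand of leukocyte integrins, rose from 3.54, 3.65 and 7.06 FPKM to 6.05, 6.38 and 11.7 FPKM, with overlap (log2 difference 0.76 ± 0.35, adjusted p = 0.0169 with the block, limma). Fibronectin (Fn1) had a log2 difference of 0.03 ± 0.45, and its level varied more between pairs than within them.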

How the data were processed

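RNA was measured in 6 cultures, 3 AdGFP and 3 AdCre. Per the labels, poly-A mRNA was purified and copied with random hexamers. The submitters' processing notes name fastp, STAR 2.5, HTSeq 0.6.1 and mm10; annotation and strandedness are not given in the sources used here. The authors deposited FPKM, 1 column per sample. Symbols, exon lengths and coordinates were taken from GENCODE M21 (GRCm38), which holds 54495 of the 54532 IDs. FPKM times exon length gave whole reads, within 0.01 read, for 96.8% of 28433 genes and for all 37 members.

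On the log2(FPKM + 0.1) scale, 13794 genes averaging 0.5 FPKM or more were tested in limma 3.58.1 (R 4.3.3; lmFit, eBayes with trend) with a term for group, so fold changes of low genes are understated. p-values were adjusted over all genes by Benjamini-Hochberg, and a gene passed at 0.05. Correlations of same-numbered samples' deviations were 0.568, 0.268 and 0.506, against -0.497 to 0.0364 for other combinations, so equal numbers were treated as pairs, on the values alone, and blocked values are given. The labels call samples biological replicates; p-values measure the spread between these cultures.

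The members and lists were chosen with earlier results of these data known. Given sample by sample are members that passed the main fit or its blocked form, and tested members that did not overlap. So is the highest chain of each role. From each list, up to 5 that passed with the block are given. Others were named after their values were seen. Promoter windows are from RefSeq (GRCm38.p6), 250 bases before a start site and a short stretch after it. Alternatives were pseudocounts, filters, scalings, no trend, voom, the block and leaving out each sample; values without the authors' scaling factors, further blocked fits and ratios to markers were added after the data were seen. Figures were drawn with matplotlib 3.10.9. A few genes that entered the fits and the counts are not reported here.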

Additional observations from a re-analysis of the deposited data

How the results depend on the processing

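Members called were 0 in the main fit and in all 16 alternatives without the block. With the replicate block they were 6 (5 without replicate 1; 0 without replicate 2, without replicate 3, with no filter or without trend; 5 with TPM, without the authors' scaling factors, with quantile normalization, with median centring or with a pseudocount of 1; 8 with voom). Itga3, Itga7 and Lamb2 were called in 8 of the 12 blocked fits, Itga6 and Itgb3 in 7, Lama2 in 2. List genes called went from 0 to 12 (11 without replicate 1, 2 without replicate 2, 0 without replicate 3 or without trend, 18 with voom, 11 with TPM, without scaling factors or with quantile normalization, 12 with median centring, 1 with no filter, 13 with a pseudocount of 1). Over all genes, 1 was called, 3 with a pseudocount of 1, 0 with no filter or with voom, 4 without trend, and 0 to 2 when 1 sample was left out. The block called 848 (1487 with voom, 875 with TPM, 874 without scaling factors, 762 with quantile normalization, 778 with median centring, 17 with no filter, 0 without trend, 784 with a pseudocount of 1, 772 without replicate 1, 149 without replicate 2 and 1 without replicate 3). Of the 848, 364 were higher, against 534 of the 875 with TPM and 479 of the 874 without scaling factors. The causes were not tested. Signs of log2 differences turned only for members that no fit called. Rescaled to TPM, with or without the block, Itgb1 came to 0.0669 and Itga1 to 0.0034. Without scaling factors, with or without the block, Itgb1 came to 0.0395, and with quantile normalization Itgb1 to 0.0667. Leaving out 1 sample gave -0.10 to 0.33 for Itga2b, -0.13 to 0.38 for Itga5, -0.43 to 0.26 for Itga8, -0.0885 to 0.0732 for Itgb1, -0.27 to 0.0575 for Itga1, -0.64 to 0.14 for Itga11, -1.02 to 1.54 for Lama3, -0.255 to 0.0377 for Lama4, -0.0806 to 0.26 for Lama5, -0.041 to 0.0574 for Lamc1, -0.43 to 0.83 for Itgam and -0.11 to 0.87 for Itgb2. With the block, leaving out replicate 1 gave 0.0346 for Itgb1, 0.16 for Itga1, -0.11 for Itga2b and 0.081 for Lama4, leaving out replicate 2 -0.0304 for Lama5 and -0.0648 for Lamc1, and leaving out replicate 3 0.0442 for Itga11. The other 800 values of the reported members kept their sign. Depth limits Itgb6, Itgb4 and the untested members, where reads are few.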
